A study of Mus musculus with 4 samples.

Results

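Semaphorins, plexins, neuropilins, ephrins and Eph receptors were followed in 4TO7 mouse mammary carcinoma cells taken from tumors that resisted anti-PD-L1, an antibody against a checkpoint ligand, and from control tumors. The members were all protein-coding genes whose symbol starts with Sema or Plxn (not Plxdc), Nrp1, Nrp2, and Epha, Ephb, Efna or Efnb with a digit, which gave 53 of the 55385 genes in the deposited table. There were 20 semaphorins, 9 plexins, 2 neuropilins, 9 EphA and 5 EphB receptors, 5 A-type and 3 B-type ephrins. The 2 resistant libraries came from 4TO7 cells of resistant tumors and the 2 control libraries from 4TO7 cells of control tumors, all grown in Balb/c mice and dissociated with enzymes before RNA extraction. The treatment label of every sample reads untreated while the treatment protocol of every sample names anti-PD-L1 in vivo, so what the control tumors received cannot be told from the labels. The design text calls the libraries of a group individual biological replicates. Whether each library came from an animal of its own is not given, and the p-values therefore refer to the variation seen among the 4 libraries, part of which may be technical.

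Semaphorins are secreted or membrane-bound ligands that signal through plexins, whose cytoplasmic domains act on small GTPases to collapse or steer the cytoskeleton. Secreted class 3 semaphorins mostly need a neuropilin to hold them to the plexin, and neuropilins also bind VEGF. Eph receptors are receptor tyrosine kinases that meet ephrins on neighbouring cells, A-type ephrins being anchored by a lipid and B-type ephrins spanning the membrane, and signals run into both cells. These families were first studied in axon guidance and also act in mammary epithelium, blood vessels and tumor cells.

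The libraries held between 45666470 and 49592054 counted reads, and the members took 0.540% to 0.603% of them. The cell label was checked against carcinoma markers: Krt8 and Krt18, keratins of simple epithelium, had at least 12649 normalized counts in every library, whereas the epithelial adhesion gene Epcam had 87.6 to 341 and the basal keratins Krt5 and Krt14 had 0 reads. The highest of the 14 carcinoma markers were Spp1, with 639748 to 996883 normalized counts, and Vim, with 124788 to 155221. The pan-leukocyte gene Ptprc reached at most 2.15 normalized counts. Endothelial cells use many of these genes, and their 14 markers were mixed. Of these 8 averaged under 10 normalized counts, with Cdh5, Kdr, Cldn5 and Sox17 between 0 and 1.92. Flt1 had 1891 to 2984 and Egfl7 357 to 438. The 14 markers summed to 2611 and 3196 in resistant and 3651 and 2493 in control libraries. Among the 6 tested, 2 rose. They were Vwf (153 and 211 in resistant, 46.1 and 22.2 in control libraries) and Mmrn2 (151 and 176 against 85.5 and 59.5). Of 8 tested pericyte and smooth muscle markers, 4 rose (Des, Notch3, Pdgfrb and Cnn1), and the 10 markers of that list summed to 1259.6 and 1571 normalized counts in resistant against 736 and 649 in control libraries. Of 21 leukocyte markers 4 could be tested, of which 1 rose (Cd68) and 1 fell (Cd14), with sums of 11687 and 11235 in resistant and 5764 and 7956 in control libraries. Of 11 fibroblast markers 5 could be tested, of which 1 fell (Dcn), with sums of 6919.7 to 10157. Most of each sum was Pdgfra (5766 to 8504). Pdgfra and Pi16 were lowest in control replicate 2 (5766 and 493). Col1a2 stood out in that library at 76.7, against at most 1.07 in any other. Col1a1 had 69.6 there and 12.5 to 35.4 elsewhere, Col3a1 13.1 and at most 1.02, and Thy1 10.1 and 0. Only 1 of 5 lymphatic (6.11 to 17.3 summed), 3 of 10 nerve and Schwann cell (2684 to 3367) and 1 of 5 adipocyte markers (12.1 to 64.4) could be tested, and none of these passed. Of 11 tested carcinoma markers 3 rose (Krt19, Cldn4 and Krt7) and 2 fell (Epcam and Cldn3). Over all tested genes 5.32% rose and 4.73% fell. The part of such cells in the differences given here was not tested, and fewer cells of a type cannot be told apart from less RNA per cell in bulk samples.

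All 4 libraries carried a guidance repertoire led by 1 or 2 members in each family. Levels are compared between genes as normalized counts (reads divided by a size factor per library) per kilobase of exon. Sema7a, a lipid-anchored semaphorin, ranked first at 13517 per kilobase over the 4 libraries and made up 53.7% to 54.9% of the summed semaphorin level in each library. The receptor kinase Epha2 followed at 5979, then the secreted semaphorin Sema3f at 4721, the neuropilin Nrp2 at 3803, the receptor kinase Ephb4 at 3580.0, the plexin Plxnb2 at 2673 and the ephrin Efna1 at 2653. Epha2 held 92.3% to 95.8% of the EphA level, Ephb4 87.9% to 90.3% of the EphB level and Nrp2 98.1% to 99.0% of the neuropilin level, so these leads held in each of the 4 libraries. Neighbours in that order from Epha2 downward were not all apart beyond their spread: Nrp2 exceeded Sema3f in control replicate 2 (4269 against 3819), Ephb4 exceeded Nrp2 in control replicate 1 (4309 against 3478), and Plxnb2 and Efna1 overlapped.

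**Figure D1:**
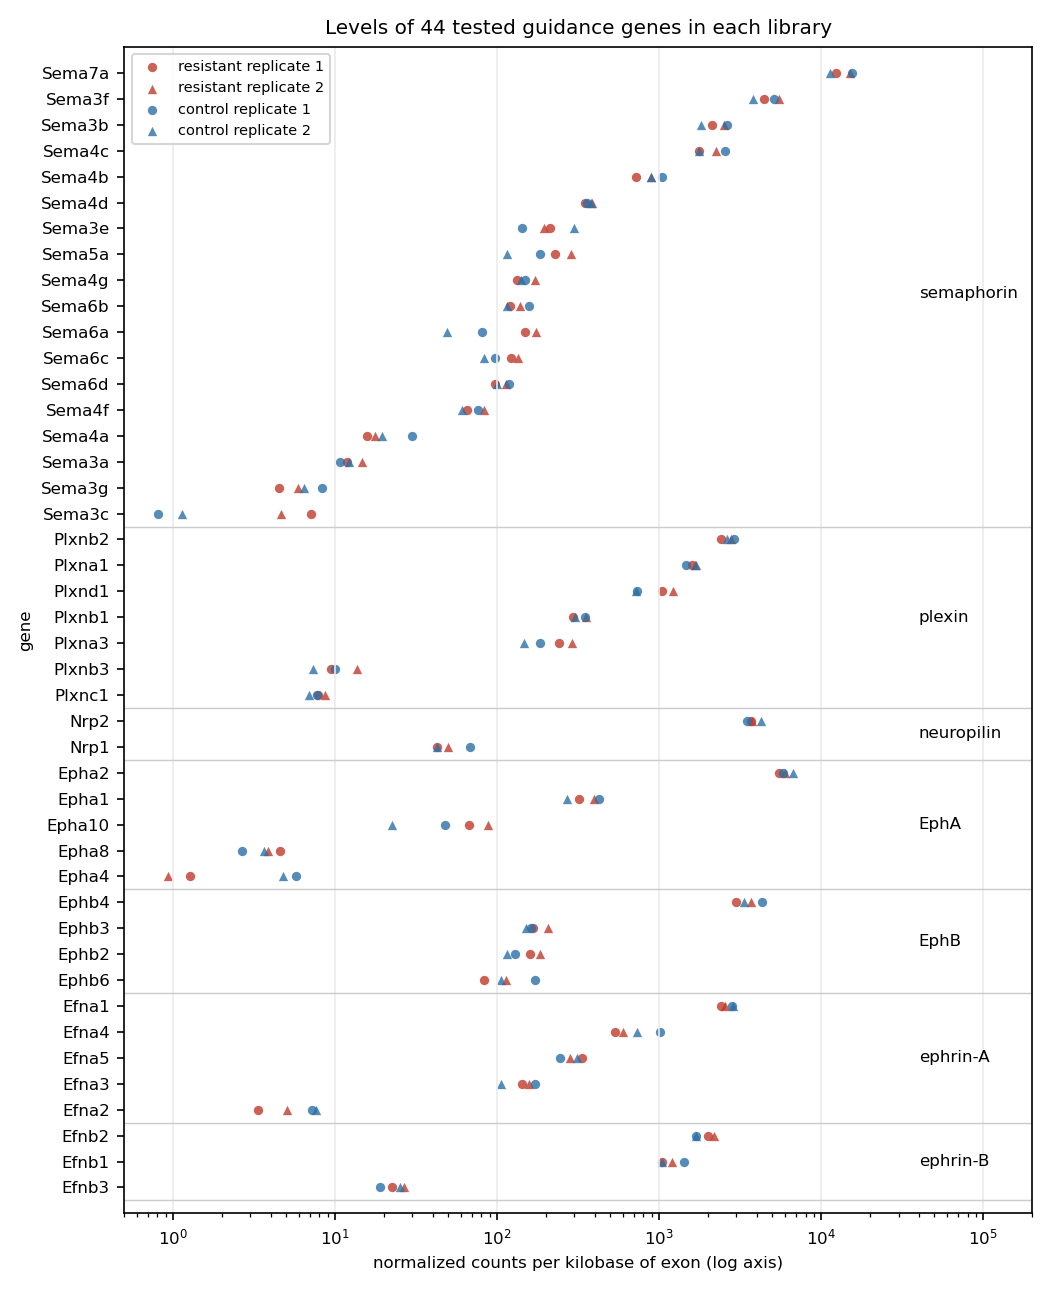
Level of each of the 44 tested members in each library, as normalized counts per kilobase of exon on a log axis, grouped by family and ordered by mean level. Red marks are resistant and blue marks control libraries, with circles for replicate 1 and triangles for replicate 2; Sema7a lies furthest right at 13517 on average and Epha4 is lowest on average at 3.17.

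At the other end, 9 of the 53 members fell below the mean of 10 normalized counts required for testing. The receptor genes Epha3, Epha6 and Epha7 had 0 reads in every library, which allows up to 3 reads each. Epha5, Ephb1, Plxna2, Plxna4, Sema3d and Sema5b had between 1 and 22 reads over the 4 libraries together. Plxna2 and Plxna4 are the known receptors of Sema6a, so the ligand of that pair was well measured while both receptors were near the detection limit. Another 8 tested members averaged under 100 normalized counts.

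Between resistant and control cells, 4 members rose (Sema3c, Sema6a, Plxnd1 and Plxna3) and 1 fell (Epha4) among the 44 tested. The test was limma on log2 values, two-sided, with Benjamini-Hochberg adjustment over all 14238 tested genes at a threshold of 0.05. Over all tested genes 10.1% were called, 5.32% as higher and 4.73% as lower in resistant cells, so the 11.4% of tested members called lay near the background. The median log2 fold change, resistant minus control, was 0.06 over the tested members and 0.00 over all tested genes, and the median absolute value was 0.19 and 0.22. The groups did not overlap for 18 of the 44 members (12 higher and 6 lower in resistant cells), against 56.7% of all tested genes (28.4% higher and 28.3% lower). The genes Sema3c, Epha4 and Efna2 passed the filter on low values through their higher group alone, and such genes had to differ, so these counts only describe the members.

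**Figure D2:**
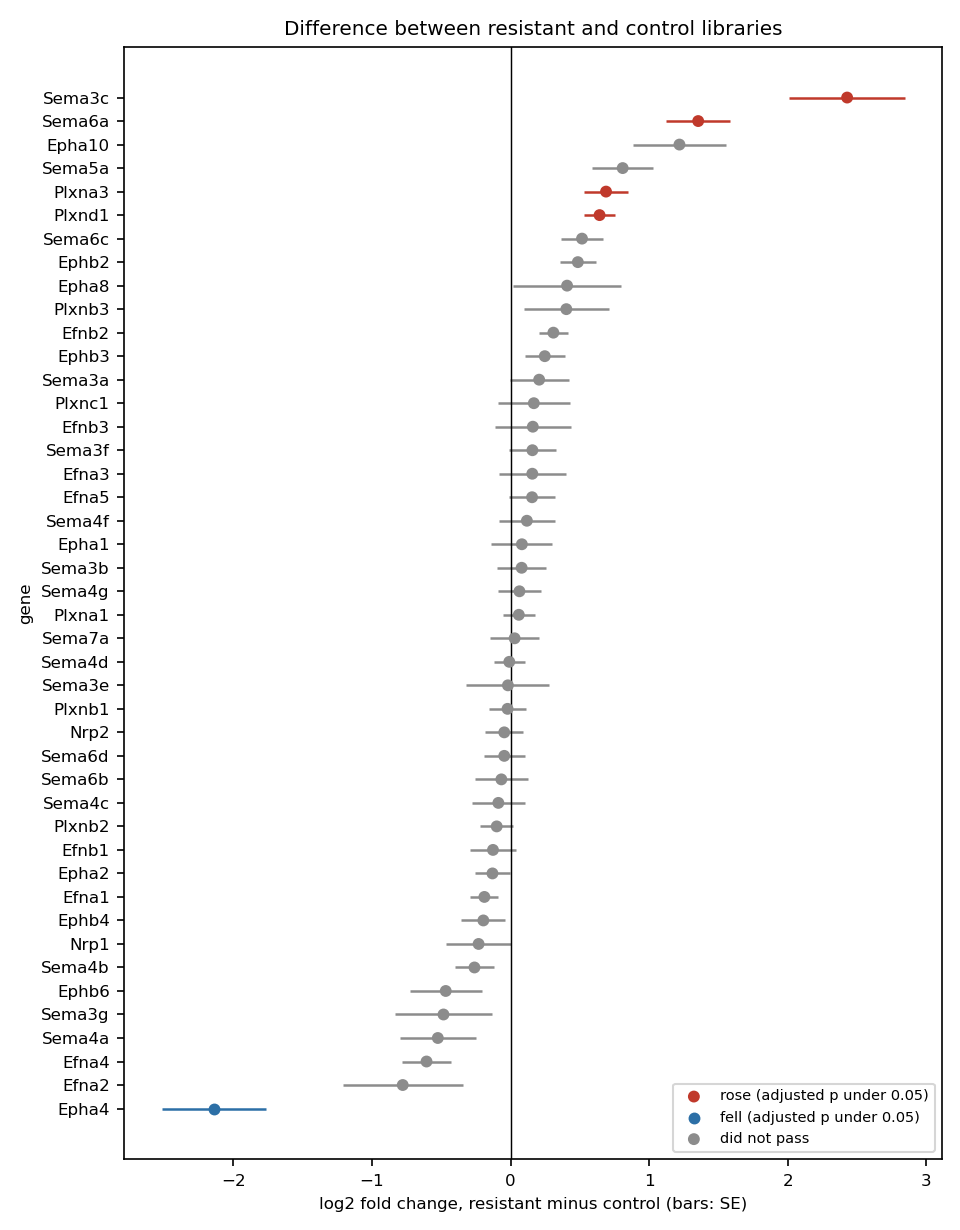
Log2 fold change of the 44 tested members, resistant minus control, with bars of 1 standard error from limma. Colored points passed the adjusted threshold of 0.05 (4 rose, 1 fell); grey points did not, and most of them lie within 0.5 of 0.

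Of the 6 tested class 3 semaphorins, which are secreted, 1 passed the threshold, Sema3c, which had entered the test through its resistant libraries alone. Sema3c, a ligand that acts through neuropilins and plexins (ENSMUSG00000028780.13, chromosome 5, 17574281 to 17730268, GRCm38), had 51.0 and 33.3 normalized counts in the resistant libraries and 5.76 and 8.07 in the control libraries. Both resistant libraries lay above both controls, at a low level. The log2 fold change was 2.43 ± 0.42 (SE, n = 2 libraries a group, limma adjusted p = 0.0136). In reads this was 81 against 14, a ratio of 6.15 after scaling with a 95% exact interval of 3.46 to 11.7 that covers counting error only. Without resistant replicate 1 the fold change was 2.13 and did not pass (limma adjusted p = 0.147).

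The abundant class 3 ligands did not pass. Sema3f, which signals through Nrp2, had 23024 and 28607 normalized counts in resistant and 26670.1 and 19846 in control libraries (log2 fold change 0.16 ± 0.17, adjusted p = 0.611). Sema3b, its close relative 0.0723 Mb away on chromosome 9, had 10049 and 12042 in resistant and 12448 and 8701 in control libraries (0.08 ± 0.18, adjusted p = 0.822). For both ligands control replicate 1 was high and control replicate 2 low, and the resistant libraries lay between or above them. Sema3e, the ligand that binds Plxnd1 without a neuropilin, had 1959 and 1807 in resistant libraries but 1313 and 2767 in control libraries, the widest control pair of the tested semaphorins at 2.11-fold. Its log2 fold change of -0.02 ± 0.30 (adjusted p = 0.978) therefore averages unlike controls. The log2 fold change of Sema3e was -0.56 against control replicate 2 alone and 0.52 against control replicate 1 alone. With 1 control library the residual spread of a gene comes from the resistant pair only, before limma moderates it over all tested genes. No p-value is therefore given for these values. Sema3a and Sema3g were low, at 149 to 204 and 20.4 to 37.5 normalized counts, and neither passed. Sema3a, Sema3c, Sema3d and Sema3e lie in a row on chromosome 5, with at most 3.32 Mb between neighbours, and Sema3c was the only tested member of that group past the threshold.

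The neuropilins, which present class 3 semaphorins and VEGF to their signalling partners, kept similar means in both groups. Nrp2 had 43955 and 44466 normalized counts in resistant and 41181 and 50551 in control libraries (log2 fold change -0.05 ± 0.14, adjusted p = 0.871). Nrp1 had 415 and 487 in resistant and 665 and 419 in control libraries (-0.23 ± 0.23, adjusted p = 0.578). The groups overlapped for both genes. Compared with control replicate 1 only, Nrp1 had a log2 fold change of -0.56, but compared with control replicate 2 only it had 0.10. Its direction therefore depended on which control library was kept. Each of these fits rests on 1 control library, so only the effect sizes are given.

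Of the 5 tested transmembrane semaphorins of classes 5 and 6, Sema6a rose and the other 4 did not pass. Sema6a, a transmembrane ligand (ENSMUSG00000019647.16, chromosome 18), had 1299 and 1533 normalized counts in the resistant and 704 and 432 in the control libraries. All resistant values exceeded all control values by more than the distance between replicates. Sema6a rose by 1.35 ± 0.23 on the log2 scale (limma adjusted p = 0.0132), from 568 ± 193 to 1416 ± 165 normalized counts (SD, n = 2). The fold change ran from 1.00 without control replicate 2 to 1.71 without control replicate 1, and without resistant replicate 2 it was 1.24 and missed the threshold (adjusted p = 0.0535). Sema6c had 726 and 798 in resistant and 573 and 494 in control libraries, which did not overlap, but it did not pass (0.52 ± 0.15, adjusted p = 0.0775). Sema6b (-0.07 ± 0.19) and Sema6d (-0.05 ± 0.15) overlapped between groups. Sema5a, a transmembrane semaphorin with thrombospondin repeats, had 4229 and 5354 in resistant and 3435 and 2146 in control libraries. Its groups did not overlap either, and its value of 0.81 ± 0.22 missed the threshold (adjusted p = 0.0611). The control pair of Sema5a differed 1.60-fold, and its log2 fold change was 1.15 against control replicate 2 alone and 0.47 against control replicate 1 alone.

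None of the 6 class 4 semaphorins and neither Sema7a nor its receptor Plxnc1 passed. Sema4d, the ligand of Plxnb1, was the steadiest, with 2682 and 2972 normalized counts in resistant and 2762 and 2923 in control libraries (log2 fold change -0.01 ± 0.11, adjusted p = 0.972). Sema4c, a ligand of Plxnb2, had 8071 and 10259 against 11632 and 8042 (-0.09 ± 0.19, adjusted p = 0.815). Values of the other class 4 members ran from -0.53 ± 0.27 for Sema4a, whose resistant libraries lay below both controls, to 0.12 ± 0.20 for Sema4f. Sema7a had 40438 and 49318 in resistant and 51064 and 37496 in control libraries (0.03 ± 0.18, adjusted p = 0.936), overlapping in full. Plxnc1 had only 57.5 to 71.9 normalized counts in any library.

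Of the plexins, the receptors of these ligands, Plxnd1 and Plxna3 rose. Plxnd1, a receptor of Sema3e and, with neuropilins, of Sema3c (ENSMUSG00000030123.15, chromosome 6, 115954811 to 115995005), had 7647 and 8911 normalized counts in the resistant and 5295 and 5281 in the control libraries. The controls were nearly equal and both resistant libraries stood above them. The log2 fold change was 0.64 ± 0.11 (limma adjusted p = 0.0147). Plxna3, a receptor of Sema3f with Nrp2 (ENSMUSG00000031398.13, chromosome X, 74329066 to 74344689), had 1905 and 2287 in resistant and 1452 and 1153 in control libraries. It rose by 0.69 ± 0.16 (adjusted p = 0.0348), again with groups that did not overlap. Leaving out resistant replicate 1 or 2 ended both calls, with fold changes of 0.75 and 0.53 for Plxnd1 (adjusted p = 0.0508 and 0.186) and 0.82 and 0.56 for Plxna3 (adjusted p = 0.0805 and 0.281). The residual spread of a gene then comes from its control pair alone, and limma moderates it by a trend over all tested genes.

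The more abundant plexins did not pass. Plxnb2 had 18559 and 21312 normalized counts in resistant and 22352 and 20326 in control libraries (log2 fold change -0.10 ± 0.12, adjusted p = 0.652). Plxna1 had 14394 and 15091 against 13178 and 15177 (0.06 ± 0.11, adjusted p = 0.788). Both pairs of groups overlapped. Plxnb1 (-0.02 ± 0.13) and Plxnb3 (0.40 ± 0.31) also did not pass, and Plxnb3, the receptor named for Sema5a, had only 47.4 to 88.0 normalized counts. Plxnb3 lies 0.557 Mb from Plxna3 on chromosome X. An antisense gene, Gm26811, overlaps 10.7% of the exon bases of Plxna1 but had at most 3 reads in any library.

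The stretch of 250 bases before the start of 3 called members is shown because these genes were called between groups. The window of Sema3c lies within an exon of the annotation and is not printed, and none is shown for Sema6a. The stretches are RefSeq promoter windows on GRCm38.p6, written 5′ to 3′ on the strand of the gene: chr6:115995006-115995255 (minus strand) for Plxnd1, chrX:74328816-74329065 (plus strand) for Plxna3 and chr1:77515089-77515338 (minus strand) for Epha4. Capitals mark the GC box GGGCGG and the related GGGCGTGG on either strand, motifs of the kind bound by Sp and KLF factors.
Plxnd1: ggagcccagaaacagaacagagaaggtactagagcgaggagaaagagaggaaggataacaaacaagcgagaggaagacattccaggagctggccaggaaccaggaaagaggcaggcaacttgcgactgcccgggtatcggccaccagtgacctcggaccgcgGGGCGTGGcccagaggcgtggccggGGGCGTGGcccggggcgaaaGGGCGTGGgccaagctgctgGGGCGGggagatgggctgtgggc
Plxna3: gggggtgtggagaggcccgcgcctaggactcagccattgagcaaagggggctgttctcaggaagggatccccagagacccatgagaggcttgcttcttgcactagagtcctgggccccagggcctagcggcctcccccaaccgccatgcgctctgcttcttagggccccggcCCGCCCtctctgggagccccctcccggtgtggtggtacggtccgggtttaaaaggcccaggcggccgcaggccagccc
Epha4: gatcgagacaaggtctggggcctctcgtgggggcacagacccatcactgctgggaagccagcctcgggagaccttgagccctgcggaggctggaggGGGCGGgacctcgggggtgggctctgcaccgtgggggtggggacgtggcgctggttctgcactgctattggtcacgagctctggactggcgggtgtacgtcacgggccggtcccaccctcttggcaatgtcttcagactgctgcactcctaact
Plxnd1 held 3 copies of GGGCGTGG and 1 of GGGCGG, and Plxna3 and Epha4 held 1 GGGCGG each. Windows with 3 or more copies of GGGCGTGG numbered 26 among 20139 windows of protein-coding genes. RefSeq windows were matched for 47 members (61 windows), of which 46 windows (75.4%) held GGGCGG and 7 (11.5%) held GGGCGTGG, against 44.1% and 6.56% of the windows of protein-coding genes. Neither marked motif contains the other. The E-box CACGTG occurred in 3 member windows (4.92%, against 6.79%), TGANTCA in 3 (4.92%, against 6.12%) and an interferon response element in 2 (3.28%, against 2.99%). Motifs were searched on both strands and chosen with the sequences in view, and a match is a description of letters.

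Of the 9 tested Eph receptors 1 passed the threshold, Epha4, which fell and had entered the test through its control libraries alone. Epha4 binds ephrins of both types (ENSMUSG00000026235.14, chromosome 1, 77367185 to 77515088) and had 10.2 and 7.51 normalized counts in the resistant and 46.1 and 38.3 in the control libraries. Both resistant libraries lay below both controls, and in resistant cells the gene was near the limit of detection. The log2 fold change was -2.14 ± 0.38 (limma adjusted p = 0.0147). In reads the change was 86 in control against 17 in resistant libraries, a ratio of control to resistant of 4.76 after scaling. The 95% exact interval of 2.81 to 8.55 covers counting error only. The call ended without resistant replicate 1 (-2.34, adjusted p = 0.0512) or 2 (-1.94, adjusted p = 0.105).

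The dominant Eph receptors did not pass. Epha2, which binds Efna1 and is abundant in many epithelial tumors, had 25538 and 27765 normalized counts in resistant and 26990.0 and 31486 in control libraries (log2 fold change -0.13 ± 0.13, adjusted p = 0.555). Ephb4, the receptor of Efnb2, had 13853 and 17069 against 19993 and 15529 (-0.20 ± 0.16, adjusted p = 0.48). The groups overlapped for both. Epha10, a receptor that lacks kinase activity, had 480.0 and 634 in resistant and 344 and 162 in control libraries. Its groups did not overlap and its fold change was larger than that of either called plexin, but its control pair differed 2.12-fold and it did not pass (1.22 ± 0.34, adjusted p = 0.0635). Ephb2 had 2004 and 2311 against 1630.2 and 1448, also without overlap (0.49 ± 0.13, adjusted p = 0.0578). Ephb3 (0.25 ± 0.14) and the kinase-inactive Ephb6 (-0.47 ± 0.26) did not pass. Epha1 had 1264 and 1556 in resistant and 1668 and 1053 in control libraries (0.08 ± 0.22). Exons of Zyx on the opposite strand overlap 236 bases of Epha1, and since the sources used here do not say whether counting used strand, part of its reads may belong to Zyx.

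No ephrin passed. Efnb2, the most abundant ephrin by normalized counts, had 13645 and 14910.1 in resistant and 11530.5 and 11496 in control libraries, with no overlap (log2 fold change 0.31 ± 0.11, adjusted p = 0.112). Efna1 had 4425 and 4651 in resistant and 5146 and 5196 in control libraries, lower in resistant cells without overlap (-0.19 ± 0.10, adjusted p = 0.281). Efna4 had 848 and 962 against 1627 and 1163, the largest negative value among ephrins with more than 100 normalized counts (-0.61 ± 0.18, adjusted p = 0.0793). Efna1, Efna3 and Efna4 sit side by side on chromosome 3, with gaps of 0.0328 and 0.0104 Mb, and did not share a direction: Efna3 had 349 and 382 in resistant and 416 and 257 in control libraries (0.16 ± 0.24). Sema4a lies 0.811 Mb away. The 10 Mb around Efna4 held 129 other tested genes with a median of -0.24. Of these 1 rose and 17 fell, beside 5.32% higher and 4.73% lower over all tested genes. Efna5 (0.16 ± 0.16), Efnb1 (-0.13 ± 0.16), Efnb3 (0.16 ± 0.27) and Efna2 (-0.78 ± 0.43) did not pass.

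**Figure D3:**
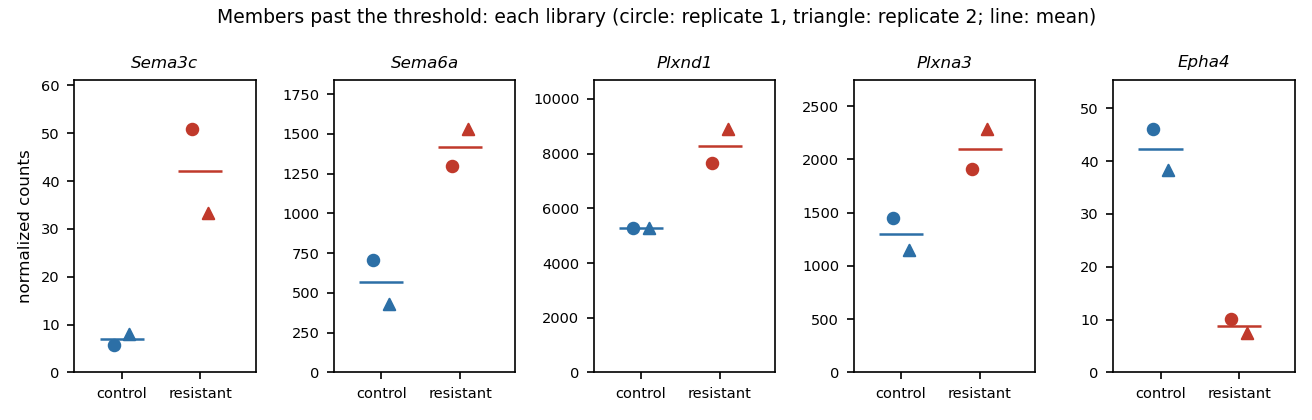
Normalized counts of the 5 called members in each library; circles are replicate 1, triangles replicate 2, lines group means, and each axis starts at 0. Both resistant libraries lie above both controls for Sema3c, Sema6a, Plxnd1 and Plxna3 and below them for Epha4.

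The 10 Mb centred on each called member held 18 other tested genes for Sema3c (median log2 fold change 0.13, 3 rose and 1 fell) and 30 for Sema6a (0.03, 2 rose and 0 fell). It held 78 for Plxnd1 (0.12, 4 rose and 1 fell), 61 for Plxna3 (0.04, 2 rose and 2 fell) and 57 for Epha4 (-0.07, 4 rose and 3 fell). Sema5a, not called, lay in a region on chromosome 15 with a median of 0.34 over 36 genes, of which 7 rose and none fell. Members with values near 0 also lay among rising genes. The window of Sema6d (-0.05) had a median of 0.34 over 117 genes (24 rose, 1 fell), and that of Sema7a (0.03) 0.21 over 92 (15 rose, 1 fell). Over all tested genes 5.32% rose and 4.73% fell. A part of the region in the change of a member was not tested.

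Members also differed between the libraries of one group. Resistant replicate 2 exceeded replicate 1 for 39 of the 44 tested members, against 54.2% of all tested genes, and control replicate 1 exceeded replicate 2 for 32 of 44, against 53.1%. The median absolute log2 difference was 0.35 within the control pair and 0.25 within the resistant pair for the members, and 0.22 and 0.14 for all tested genes. The median difference within each pair was thus larger for the members than for all tested genes. With control replicate 1 left out, 11 members rose and 2 fell in limma (29.5% of tested members), while 22.5% of all tested genes were called in that fit. With control replicate 2 left out, 9 rose and 9 fell (40.9%), while 28.6% of all tested genes were called. With either resistant library left out 1 member rose and none fell, and 3.06% and 2.91% of all tested genes were called. These were Sema6a without replicate 1 and Sema3c without replicate 2, against 8 and 6 higher members and 1 and 2 lower members at an unadjusted p under 0.05. In each such fit the group with 1 library is assumed to vary like the other.

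**Figure D4:**
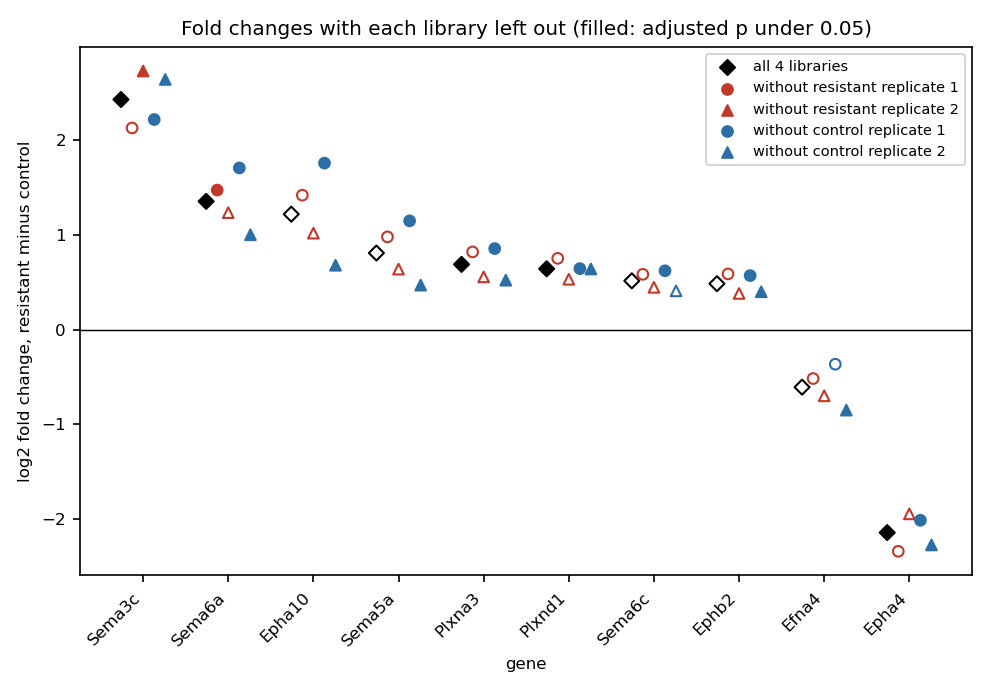
Log2 fold change, resistant minus control, of the 5 called members and 5 with an adjusted p under 0.1, fitted with all libraries (black) and with each library left out. Filled marks have an adjusted p under 0.05; no gene shown crosses 0, and Epha10 moves most among rising genes, from 0.68 to 1.76.

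Genes that work with these ligands and receptors were read from lists of the pathway that hold no member. Of 40 tested genes of semaphorin and plexin signalling 6 rose and 1 fell (median log2 fold change 0.12), and of 41 of Eph and ephrin signalling 2 rose and 1 fell (median -0.02), beside 5.32% higher and 4.73% lower over all tested genes. L1cam, an adhesion molecule that associates with Nrp1 in the Sema3a receptor, had 2697 and 3025 normalized counts in resistant and 750.3 and 776 in control libraries. L1cam rose by 1.90 ± 0.12 (limma adjusted p = 0.000343), and it passed in all 13 alternative fits. The phosphatase Ptprf (0.70 ± 0.12), the integrin Itga1, which pairs with Itgb1 as a receptor of Sema7a (0.80 ± 0.18), and Mical3 of the flavin monooxygenases that act below plexins (0.50 ± 0.11) rose too. Without resistant replicate 1 or 2 these calls ended for Ptprf (adjusted p = 0.0528 and 0.129), Itga1 (0.230 and 0.329) and Mical3 (0.201 and 0.356), and with the replicate block they ended for Itga1 (adjusted p = 0.0683) and Mical3 (0.0868). Arhgef11, a guanine nucleotide exchange factor that binds B-type plexins, fell (-0.57 ± 0.13, adjusted p = 0.0347). Arhgef11 was named after its values were seen, as the 1 gene of its list that fell, and did not pass without resistant replicate 1 or 2 (adjusted p = 0.348 and 0.0824).

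Below Eph receptors, focal adhesion kinase, Ptk2, rose from 7706 and 7097 in control to 11262 and 11733 normalized counts in resistant libraries (log2 fold change 0.64 ± 0.10, adjusted p = 0.0113). The PDZ protein Pick1, which binds Eph receptors and B-type ephrins, rose by 0.56 ± 0.12. Kalrn, a guanine nucleotide exchange factor that acts in EphB signalling, fell from 266 and 153 to 57.1 and 61.1 (-1.76 ± 0.30, adjusted p = 0.0135). Among 6 tested VEGF ligands and receptors, which share the neuropilins, Vegfc fell from 1367 and 1088 to 493 and 599.6 (-1.16 ± 0.17, adjusted p = 0.00742) and Pgf rose by 0.62 ± 0.12 (adjusted p = 0.0208). The groups did not overlap for any of these 5 genes, which were named because they passed. Of all tested genes 56.7% did not overlap either. Without resistant replicate 1 or 2 the calls ended for Ptk2 (adjusted p = 0.0927 and 0.137), Pick1 (0.334 and 0.196) and Pgf (0.108 and 0.205). Kalrn did not pass without resistant replicate 1 (adjusted p = 0.0534), nor Pick1 with the replicate block (0.0705).

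Of 15 tested genes of other guidance families 2 rose and 1 fell (median log2 fold change -0.11), beside 10.1% called over all tested genes. The 3 called genes were Ntn1, Unc5b and Neo1. The secreted ligand netrin-1, Ntn1, had 4132 and 4944 normalized counts in resistant and 10884 and 8946 in control libraries. It fell by 1.13 ± 0.14 on the log2 scale (limma adjusted p = 0.00359) and passed in all 13 alternative fits. Its receptors Unc5b, with 7924 and 9542 against 5186 and 4589, and Neo1, with 33146 and 37719.9 against 21633 and 22007, rose by 0.83 ± 0.13 (adjusted p = 0.00895) and 0.70 ± 0.12 (adjusted p = 0.0129). Ntn1 was thus lower and Unc5b and Neo1 higher in each resistant library than in each control library. These 3 genes were named because they passed. Dcc, Unc5a, Unc5c and Unc5d, also netrin receptors of the list, were not called. The list held 14 matched genes with a mean under 10 normalized counts, which were not tested and so could not be called. Without resistant replicate 1 or 2 Neo1 no longer passed (0.79 and 0.60), and the call of Unc5b without resistant replicate 2 (0.70).

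**Figure D5:**
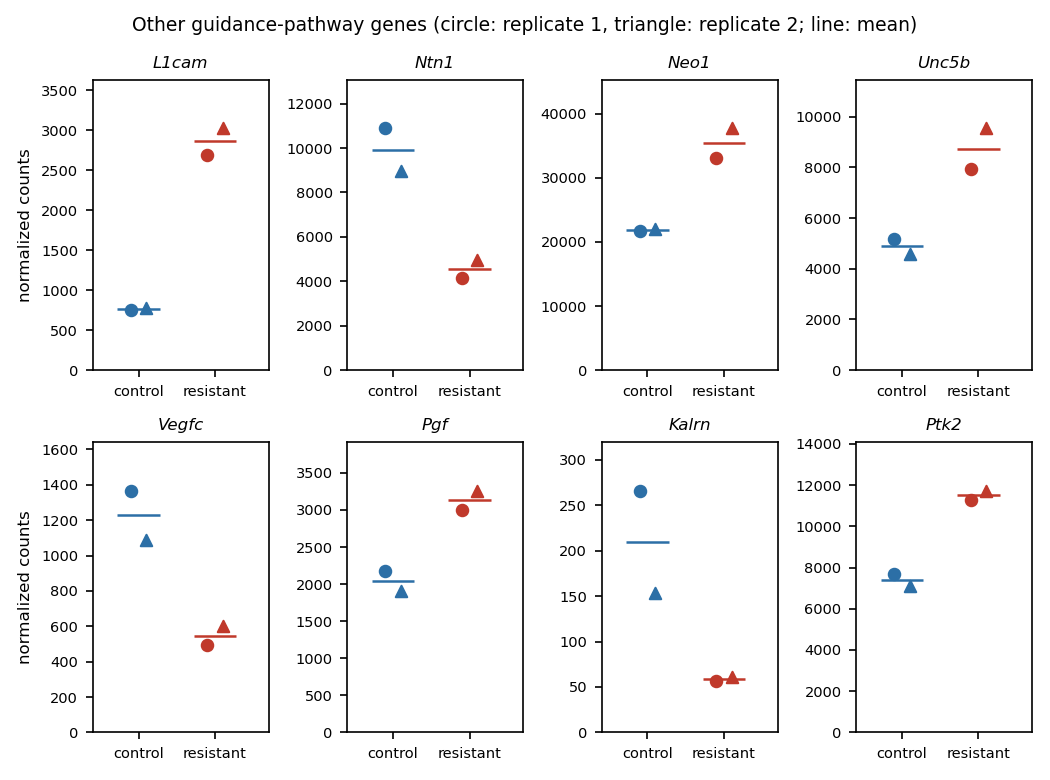
Normalized counts of 8 called genes of the pathway lists in each library; circles are replicate 1, triangles replicate 2, lines group means, and each axis starts at 0. L1cam, Neo1, Unc5b, Pgf and Ptk2 are higher and Ntn1, Vegfc and Kalrn lower in both resistant libraries than in both controls.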

How the data were processed

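Bulk RNA-seq of 4 libraries was used, grouped by the sample source labels and matched to columns by title. The authors deposited log2 values. STAR, DESeq2 and mm10 are named in the submitters' processing notes; versions, annotation release and strand setting are not given in the sources used here. From the values, each is the log2 of 1 plus a size-factor-scaled read count: undoing the log gave whole reads for 100% of values at a tolerance of 0.01 reads, and with them the depth. Symbols came from GENCODE M21 (GRCm38, which is mm10) for 55144 of 55385 identifiers, joined without version.

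The 14238 genes averaging 10 or more normalized counts entered limma 3.58.1 (R 4.3.3; eBayes with a trend, pseudocount of 1 as deposited, no block), adjusted by Benjamini-Hochberg at 0.05. The pseudocount understates the change of low genes. Members, lists and named genes were chosen with earlier results of these data known. The text covers all members, with those past the threshold, the highest per family and ligand or receptor partners in full. From each pathway list up to 4 called genes were named, plus Arhgef11. The plan was to name the genes with the highest mean of each marker list. The text departed from it: other marker genes were named too, and the highest lymphatic, nerve and adipocyte markers were not. Marker lists cover endothelial, lymphatic, leukocyte, fibroblast, pericyte, nerve, adipocyte and carcinoma cells. Exact binomial intervals (95%) and the floor of 3 reads cover counting error only. The fit was tested on simulated data. Alternatives changed the pseudocount, filter, scaling, moderation, model (voom on recovered reads), block and libraries.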

Additional observations from a re-analysis of the deposited data

How the results depend on the processing

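Of the 13 alternatives, 9 kept all 5 called members: pseudocounts of 0.5 and 5, library totals or the upper quartile as scaling, robust moderation, voom on recovered reads, the replicate block and leaving out either control library. Members that rose or fell numbered 4 and 1 in each of the first 6, and 6 and 1 with the replicate block, which added Epha10 and Sema5a and dropped the pathway genes Itga1, Mical3 and Pick1 among those followed; the numbers only name samples, their deviations correlated at -0.357, and with the replicate block 628 genes rose and 585 fell overall. Without a filter on low values limma called 0 members in either direction (9 higher and 2 lower at an unadjusted p under 0.05). Over all genes it called 126 higher and 185 lower, with 2 pathway genes in place of 15. In that fit 26782 genes were tested and the limma trend was refitted over them, so both the adjustment and the moderation changed. With a mean of at least 50 required, 3 members rose and 0 fell (1 lower at an unadjusted p under 0.05), since Sema3c and Epha4 were no longer tested. Leaving out 1 library gave 1 to 11 higher and 0 to 9 lower members, 146 to 2074 higher and 234 to 1993 lower genes, and 4 to 37 pathway genes; the cause was not tested. Among the genes followed, direction changed only for members not called with all libraries: Sema7a (-0.011 with library totals, -0.010 with voom, and -0.19 to 0.25 with a library left out), Sema3e (-0.56 to 0.52), Nrp1 (-0.56 to 0.10), Nrp2 (-0.19 to 0.10) and Sema3f (-0.055 to 0.37) with a library left out. Depth limits members under about 50 normalized counts, Sema3c and Epha4 among the called.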
